A study of Bos taurus with 6 samples.

Results

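The cytoplasmic ribosomal proteins are the protein components of the small and large subunits of the cytoplasmic ribosome. They were taken here as all array probes whose gene symbol is RPL or RPS followed by a digit, or RPSA, RPLP0, RPLP1 or RPLP2. The S6 kinases (RPS6K symbols) and symbols ending in L1 were left out. This gave 66 genes with 113 probes, out of 15229 gene symbols with 21790 probes on an array of 43794 named probes. The small subunit had 26 genes with 39 probes and the large subunit 40 genes with 74 probes. One small-subunit symbol, RPS19BP1, is a binding partner of RPS19 and no ribosomal protein, and it was kept because the rule takes it in.

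RNA of blastocysts produced in vitro was compared with RNA of granulosa cells on 6 oligonucleotide arrays, each read in Cy3 and Cy5. The blastocysts were Holstein embryos collected on day 7 after fertilisation with mixed semen of 3 bulls, cultured in SOF medium from oocytes of abattoir ovaries with follicles of 3 to 6 mm. The granulosa cells, which line the ovarian follicle, came from lactating Holstein cows at day 8 to 11 after oestrus and from follicles over 5 mm. After an aspiration of follicles and a further 36 h, the cows received 6 injections of 40 mg of follicle-stimulating hormone (FSH), 240 mg in all, and the cells were aspirated through a needle 44 h after the last one, then picked under a microscope and washed. The labels do not state how many embryos or cows each RNA pool holds. Antisense RNA was amplified from both and labelled chemically with Cy3 and Cy5. Both RNAs were on every array, with blastocyst RNA in Cy3 on 3 arrays and in Cy5 on the other 3, and averaging the arrays of one number and opposite dyes gave 3 replicates.

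In mammals most ribosomal proteins are present in one copy per subunit, so their synthesis is matched, and a surplus of any one protein is degraded. Their messenger RNAs start with a pyrimidine tract (the TOP motif) through which the TOR pathway sets their translation. In the bovine embryo, ribosome production starts in earnest with the activation of the embryonic genome, several cleavages before the blastocyst forms.

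Every value below is the log2 ratio of blastocyst over granulosa, so that a negative value is a higher signal in granulosa cells. Values with ± are means and SD over the 3 replicates. Each was tested against 0 with limma over all 35034 probes above background, and all adjusted p-values are its Benjamini-Hochberg values. A probe passed at an adjusted p under 0.05 and a change of at least 1 on the log2 scale. Of the 113 probes 112 were tested, and all of these were above background in both cell types on all 6 arrays. The probe of RPL3L, a paralogue of RPL3 known from striated muscle, was not tested, since it was above background in blastocysts on no array and in granulosa cells on 1. Raw signal medians over all probes ran from 189 to 283 units in the blastocyst channels and from 177 to 386 units in the granulosa channels. Of 17 tested probes for blastocyst markers such as POU5F1, NANOG and KRT18, 12 passed as higher in blastocysts and none as lower. Of 15 tested probes for granulosa markers, 5 passed as higher in granulosa cells and none as lower there. These were INHA, INHBA, FST, VIM and 1 of 2 GJA1 probes, whereas the probes of FSHR and CYP19A1 did not pass and that of FOXL2 was above background on no array in either cell type. In RNA from bulk samples, fewer cells of a type and less RNA per cell cannot be told apart, and a ratio normalized within an array says nothing of the amount of ribosomal protein RNA per cell.

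Ribosomal protein probes leaned towards granulosa cells, mostly by less than 1 on the log2 scale. Of the 112 tested, 26 had a positive ratio and 86 a negative one, and the ratios of 66 lay within 0.5 of 0. In all, 2 probes of one gene, RPS2, passed as higher in blastocysts (1.79% of the members, against 4.95% of all tested probes). In granulosa cells 13 probes of 9 genes passed as higher (11.6%, against 5.19% of all tested probes). These 9 genes were RPS14, RPL18, RPS26, RPLP0, RPL35A, RPS19, RPS3A, RPL15 and RPL21. By the adjusted p alone, 4 probes of 3 genes were higher in blastocysts (3.57%, against 8.92% of all tested probes). By the same measure 28 probes of 16 genes were higher in granulosa cells (25%, against 8.35% of all tested probes). The tested probes, here and below, include some not above background on every array, as all 112 members were. Among the 19540 probes above background in both cell types on all 6 arrays, 3232 passed, 1527 of them as higher in blastocysts. By the adjusted p alone these were 5374, in either direction. In that setting 2 and 13 members passed, and 6 and 28 by the adjusted p alone. Without replicate 2 no member passed by either measure, nor did any other probe on the array, while 41 members had an unadjusted p under 0.05. Without replicate 1, 1 probe passed as higher in blastocysts and 4 as higher in granulosa cells, and without replicate 3, 1 and 9 passed. These single probes higher in blastocysts were RPL7 EMBV3_27085 and RPL7A EMBV3_09892, and neither RPS2 probe passed with any replicate left out. By the adjusted p alone, omission of replicate 1 left 1 and 6 probes, and omission of replicate 3 left 2 and 14 probes. A fit on all 6 arrays that took the replicate number as a block gave 2 and 13 passing probes, but 12 and 45 by the adjusted p alone. Its common correlation within the block was -0.0026, so it treated the 6 arrays nearly as independent.

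The median member ratio was -0.27, against -0.011 over all tested probes. By replicate the median was -0.41, -0.25 and -0.12, and 92, 84 and 70 of the 112 ratios were negative. All 3 replicates leaned the same way, by unequal amounts. Each array alone also gave a negative median, from -0.44 to -0.053. The size depended on the normalization. Median centring of each array in place of loess, which bends the correction with brightness, gave a median of -0.071 with 64 negative ratios, and the split of passing probes became 3 and 6. The 6 were both RPS14 probes, 3 of the RPL18 probes and RPS26, while RPS19, RPS3A, RPLP0, RPL35A, RPL15, RPL21 and the fourth RPL18 probe lay between -0.97 and -0.76. Without any normalization the median of all probes moved to -0.21, and the members lay -0.057 from it.

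**Figure D1:**
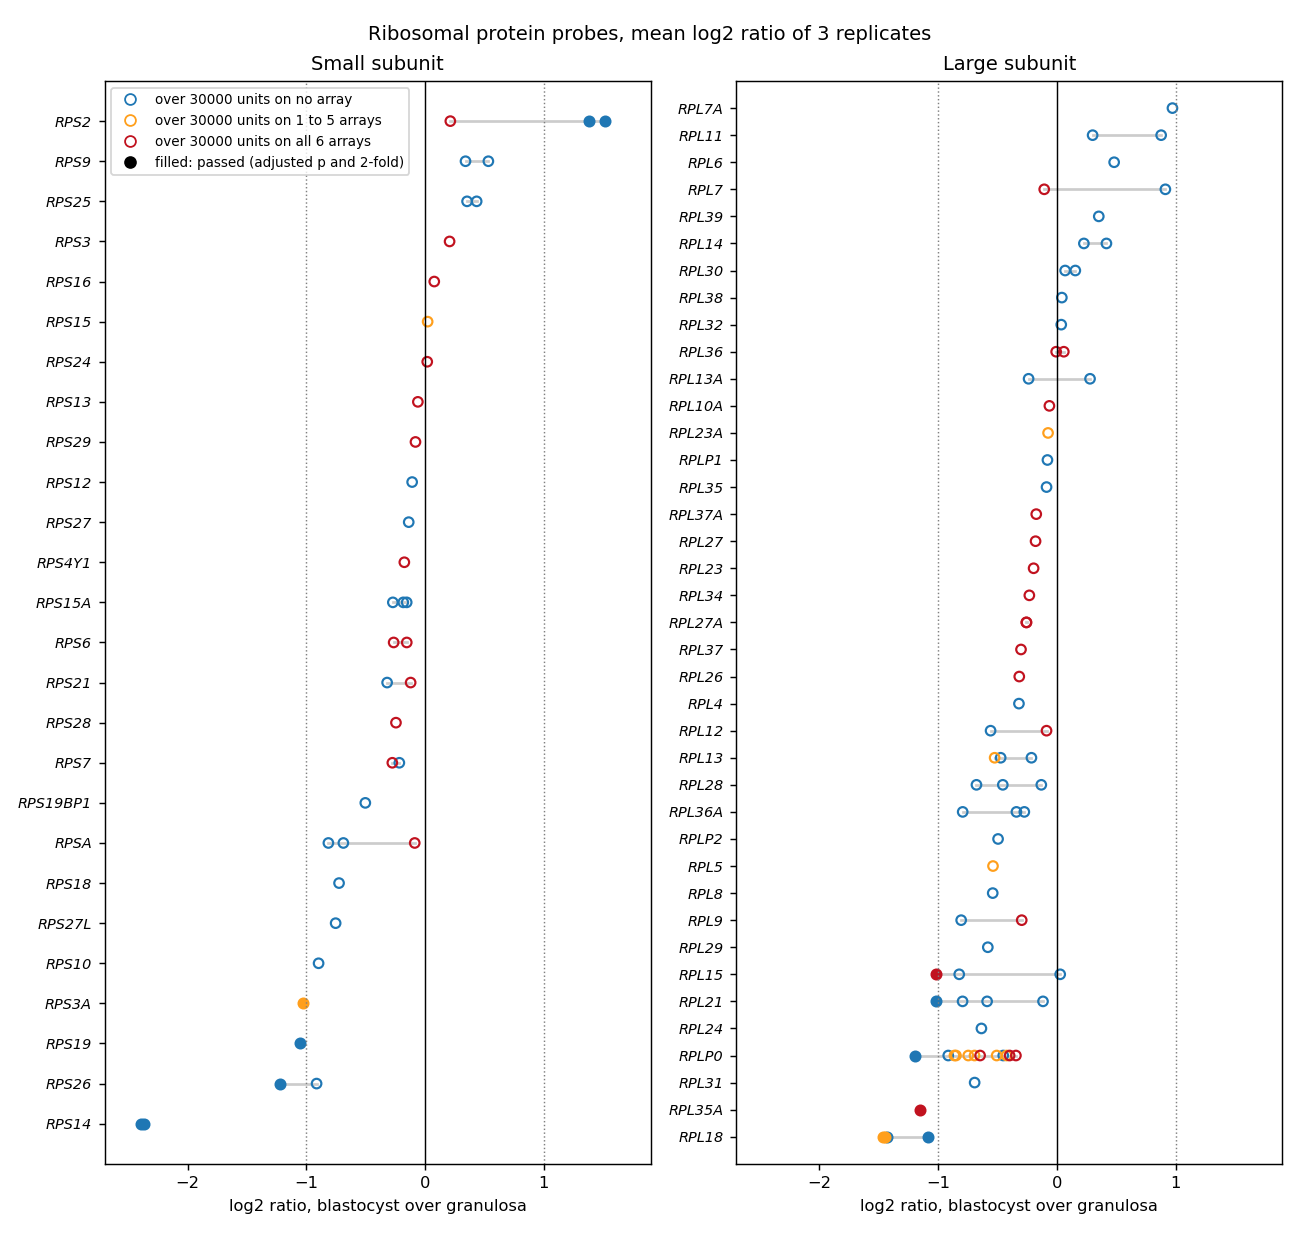
Each row is a gene, with the small subunit on the left and the large subunit on the right, and each circle is the mean log2 ratio (blastocyst over granulosa) of one probe over 3 replicates. Colour gives the number of arrays with a raw signal over 30000 units, filled circles passed, grey lines join probes of a gene, and dotted lines mark a log2 ratio of 1 and -1. Most genes sit left of 0, RPS14 stands lowest at -2.39 and -2.37, and 2 probes of RPS2 are the only filled circles to the right.

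In the small subunit, RPS14 had the lowest ratio of all members. It encodes a protein of the subunit's platform and is known in humans as a gene lost in the 5q- form of myelodysplastic syndrome. Probe EMBV3_39844 had normalized log2 intensities of 9.90, 10.32 and 10.21 in blastocysts, against 12.89, 12.30 and 12.41 in granulosa cells. Every granulosa value was above every blastocyst value, and the ratio was lowest in replicate 1. The ratios were -2.99, -1.98 and -2.21, with a mean of -2.39 ± 0.53, a 5.25-fold higher signal in granulosa cells (adjusted p = 0.0184). The other probe, EMBV3_28689, gave -3.03, -1.97 and -2.11, with a mean of -2.37 ± 0.57 (adjusted p = 0.0213). Both probes kept their sign on all 6 arrays. The adjusted p of EMBV3_39844 ran from 4.46e-05 in the fit with the replicate block to 0.0770 without replicate 2, and it was 0.0716 without replicate 3.

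RPS26, RPS19 and RPS3A were also higher in granulosa cells. RPS26 lies where the messenger RNA leaves the subunit, RPS19 belongs to its head, and RPS3A contacts initiation factor eIF3 on the platform. Mutations of RPS19 and RPS26 are known in humans to cause Diamond-Blackfan anaemia. RPS26 probe EMBV3_10715 measured 7.94, 7.98 and 8.47 in blastocysts, against 9.35, 9.20 and 9.52 in granulosa cells, without overlap. Its mean ratio was -1.22 ± 0.18 (adjusted p = 0.0117), and the other RPS26 probe had -0.91 ± 0.50 (adjusted p = 0.0877). RPS19 measured 9.06, 9.22 and 9.42 in blastocysts, against 10.21, 10.53 and 10.11 in granulosa cells. These values did not overlap either, and the mean ratio of RPS19 was -1.05 ± 0.33 (adjusted p = 0.0339). The RPS3A ratio was -1.03 ± 0.21 (adjusted p = 0.0182), with granulosa intensities within 0.02 of each other, at 14.92, 14.92 and 14.90, and over 30000 raw units, close to the scanner's limit, on 4 arrays. RPS19 missed the size criterion with the other background corrections and with the net intensities, at -0.99 to -0.91, and RPS3A without normalization and with the net intensities, at -0.98 and -0.99.

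RPS18, RPSA and RPS27L were higher in granulosa cells by the adjusted p but by less than 1 on the log2 scale. RPS18, a protein of the head often used as a reference transcript, had a ratio of -0.73 ± 0.21 (adjusted p = 0.0340). RPSA, which binds at the back of the subunit and is also known as a laminin receptor, had 3 probes. Their ratios were -0.82 ± 0.16 (adjusted p = 0.0194), -0.69 ± 0.33 (adjusted p = 0.0713) and -0.09 ± 0.18 (adjusted p = 0.525). The last of these was over 30000 units on all 6 arrays, and its ratio turned to 0.16 with median centring. RPS27L, a paralogue of RPS27 and a p53 target in human cells, had a ratio of -0.75 ± 0.15 (adjusted p = 0.0202), whereas RPS27 had -0.14 ± 0.15 (adjusted p = 0.301).

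RPS2 was the one member gene that passed as higher in blastocysts. It lies at the entrance of the messenger RNA channel and is methylated on arginines by PRMT3. Probe EMBV3_02118 measured 14.37, 14.35 and 14.16 in blastocysts, against 13.07, 12.33 and 12.93 in granulosa cells. All blastocyst values exceeded all granulosa values, with the widest gap in replicate 2. Its ratios were 1.30, 2.01 and 1.23, with a mean of 1.51 ± 0.44, a 2.86-fold difference (adjusted p = 0.0289). Probe EMBV3_31211 gave 1.17, 1.71 and 1.24, with a mean of 1.38 ± 0.29 (adjusted p = 0.0183). Both were positive on all 6 arrays. The third probe of RPS2, EMBV3_19874, had 0.21 ± 0.24 (adjusted p = 0.281). It was over 30000 units on all 6 arrays, with 15.12, 15.08 and 15.18 in blastocysts, against 15.04, 15.02 and 14.69 in granulosa cells. The adjusted p of EMBV3_02118 ran from 0.000337 in the fit with the replicate block to 0.0947 without replicate 1, and leaving out any replicate put both probes above 0.05.

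**Figure D2:**
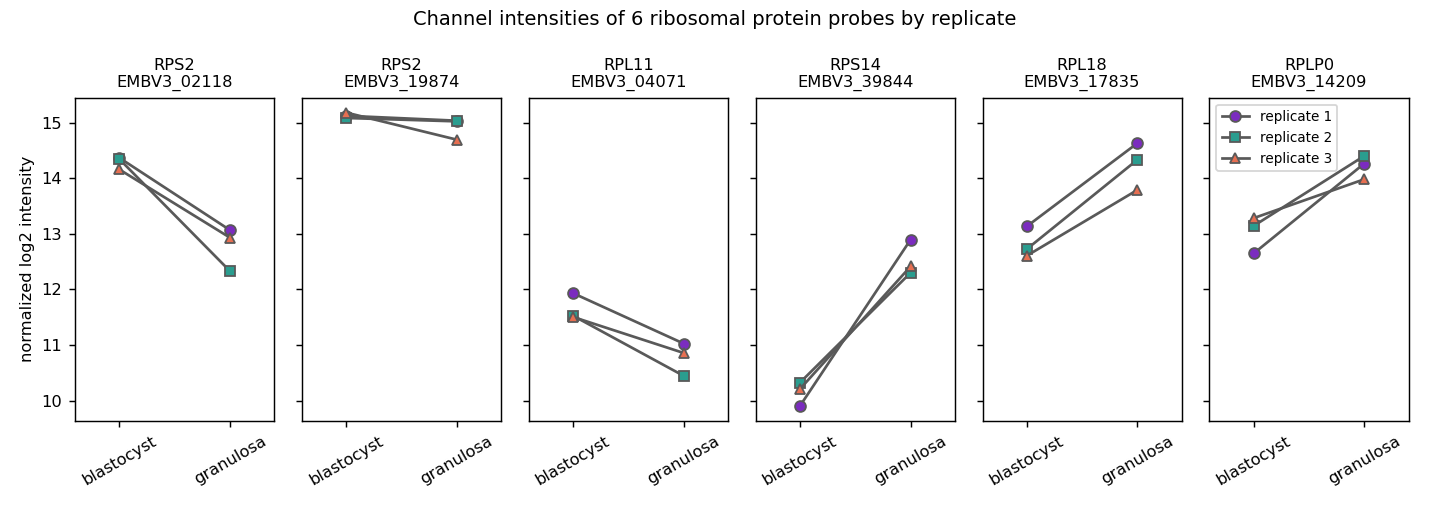
Normalized log2 intensities of 6 member probes in blastocysts (left in each panel) and granulosa cells (right), with one line per replicate. RPS2 probe EMBV3_02118 and RPL11 are lower on the right in all 3 replicates, RPS14, RPL18 and RPLP0 are lower on the left in all 3, and RPS2 probe EMBV3_19874 stays near the top of the scale in both.

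The other small-subunit genes had ratios between -0.90 and 0.53, and none passed. RPS10, a protein of the beak that is ubiquitinated when ribosomes collide, had -0.90 ± 0.50 (adjusted p = 0.0910), with its lowest ratio, -1.46, in replicate 2. RPS19BP1 had -0.50 ± 0.69 (adjusted p = 0.324). RPS6, the target of the S6 kinases, had -0.27 ± 0.04 (adjusted p = 0.0520) and -0.16 ± 0.05 (adjusted p = 0.131). Both RPS6 probes were over 30000 units on all 6 arrays, and the second turned to 0.10 with median centring. RPS9, at the entrance of the messenger RNA channel, had 0.53 ± 0.21 (adjusted p = 0.0574) and 0.34 ± 0.37 (adjusted p = 0.255). RPS25, which some viral internal ribosome entry sites need, had 0.43 ± 0.22 (adjusted p = 0.0846) and 0.35 ± 0.18 (adjusted p = 0.0930). The 3 probes of RPS15A moved together across replicates, negative in replicates 1 and 3 and positive in replicate 2, with means of -0.27, -0.18 and -0.16. RPS3, RPS7, RPS12, RPS13, RPS15, RPS16, RPS21, RPS24, RPS28, RPS29 and RPS4Y1 lay between -0.32 and 0.21. The RPS4Y1 probe was over 30000 units in the granulosa cells of cows on all 6 arrays, though its symbol is that of a Y-linked gene in humans. Which gene copy this probe reads was not tested.

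In the large subunit, RPL18 was the gene with the most evenly lower ratios. All 4 of its probes passed, with ratios of -1.46 ± 0.20, -1.45 ± 0.23, -1.43 ± 0.22 and -1.08 ± 0.22 and adjusted p-values from 0.0106 to 0.0182. Probe EMBV3_17835, which was under 30000 units on every array, measured 13.13, 12.73 and 12.61 in blastocysts, against 14.63, 14.33 and 13.79 in granulosa cells. The groups did not overlap, both cell types were brightest in replicate 1, and the ratios were -1.50, -1.61 and -1.18. RPL18 is among the genes linked to Diamond-Blackfan anaemia in humans. The adjusted p of EMBV3_19262, the RPL18 probe with the lowest value, ran from 1.88e-05 in the fit with the replicate block to 0.0558 without replicate 2, and it was 0.0535 without replicate 1.

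RPL35A, RPL15 and RPL21 each had a probe that passed as higher in granulosa cells. RPL35A, another Diamond-Blackfan anaemia gene, measured 13.79, 14.07 and 14.00 in blastocysts, against 15.12, 15.17 and 15.03 in granulosa cells, with a ratio of -1.15 ± 0.16 (adjusted p = 0.0113). It was over 30000 units on all 6 arrays in granulosa cells and on none in blastocysts. For RPL15, a core protein that binds 28S ribosomal RNA, 3 probes gave different ratios. EMBV3_14208 had -1.02 ± 0.18 (adjusted p = 0.0156), EMBV3_29909 had -0.82 ± 0.30 (adjusted p = 0.0465), and EMBV3_10869 had 0.03 ± 0.29 (adjusted p = 0.897). Of 4 RPL21 probes, EMBV3_05030 had -1.02 ± 0.18 (adjusted p = 0.0156), 2 others had -0.79 and -0.59, both past the adjusted p, and the last had -0.12 ± 0.03 (adjusted p = 0.189). The files do not say which transcript or exon a probe matches, so the probes that differ cannot be assigned to one. With median centring these 3 ratios were -0.91 for RPL35A, -0.76 for EMBV3_14208 and -0.85 for EMBV3_05030, so that none passed. EMBV3_05030 also missed the size criterion with the other background corrections and with the net intensities, at -0.99 to -0.95, and did not pass with any replicate left out. EMBV3_14208 missed it without normalization and with the net intensities, at -0.95 and -0.98.

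RPLP0 forms the base of the P stalk, which with RPLP1 and RPLP2 recruits the GTPases of translation. It had 12 probes, all with a negative ratio, from -1.19 to -0.35 and with a median of -0.67. By the adjusted p, 6 of the 12 were higher in granulosa cells. Only EMBV3_14209 passed the size criterion as well. It measured 12.65, 13.14 and 13.28 in blastocysts, against 14.27, 14.40 and 13.98 in granulosa cells, with ratios of -1.62, -1.26 and -0.70. The groups did not overlap and the ratio was smallest in size in replicate 3. Its mean was -1.19 ± 0.46 (adjusted p = 0.0485), with a range from 0.000958 in the fit with the replicate block to 0.206 without replicate 2, and it was 0.0559, 0.0522 and 0.0550 with no background correction, plain subtraction and the net intensities. Across the 12 probes the ratios ran from -1.62 to -0.44 in replicate 1 and from -0.70 to 0.01 in replicate 3. On at least one array 9 of the 12 were over 30000 units, and 3 were so on all 6. RPLP2 had -0.98, -0.60 and 0.09 (mean -0.50 ± 0.54, adjusted p = 0.252), and RPLP1 had -0.50, -0.10 and 0.36 (mean -0.08 ± 0.43, adjusted p = 0.793). Both stalk partners had their highest ratio in replicate 3, where the sign was positive, and RPLP1 turned to 0.11 with median centring and to 0.13 without replicate 1.

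RPL11 and RPL5 together carry 5S ribosomal RNA into the subunit and bind MDM2 when ribosome assembly fails. RPL11 probe EMBV3_04071 measured 11.93, 11.53 and 11.50 in blastocysts, against 11.03, 10.45 and 10.86 in granulosa cells. Every blastocyst value was the higher, and the ratio was 0.88 ± 0.22 (adjusted p = 0.0255). The second RPL11 probe had 0.30 ± 0.10 (adjusted p = 0.0653), positive on all 6 arrays. RPL5 had -0.90, -0.32 and -0.39, with a mean of -0.54 ± 0.31 (adjusted p = 0.102). The signs of these partners thus differed, on 3 probes in all, and the difference between them was not tested.

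RPL7 and RPL7A, which despite their names are unrelated proteins, had the other high ratios of the large subunit. RPL7 probe EMBV3_27085 gave 0.73, 1.08 and 0.94, with a mean of 0.91 ± 0.18 (adjusted p = 0.0178). The second RPL7 probe, over 30000 units on all 6 arrays, had -0.11 ± 0.14 (adjusted p = 0.378), and 0.15 with median centring. RPL7A gave 1.19, 1.23 and 0.50, with a mean of 0.97 ± 0.41 (adjusted p = 0.0561). RPL6 had 0.48 ± 0.26 (adjusted p = 0.0926), with positive ratios on all 6 arrays.

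Past the adjusted p but not the size criterion were also RPL31, RPL24, RPL29 and 1 of 3 RPL28 probes, all higher in granulosa cells. RPL31, beside the exit of the peptide tunnel, had -0.69 ± 0.18 (adjusted p = 0.0297). RPL24, which forms a bridge to the small subunit, had -0.64 ± 0.21 (adjusted p = 0.0422), and RPL29 had -0.58 ± 0.16 (adjusted p = 0.0340). RPL28 had -0.46 ± 0.11 (adjusted p = 0.0332) at that probe. At its other probes it had -0.68 ± 0.40 (adjusted p = 0.102) and -0.13 ± 0.24 (adjusted p = 0.462). RPL13A, an interferon-regulated translational silencer in human cells and a common reference transcript, had 0.28 ± 0.10 (adjusted p = 0.0715) and -0.24 ± 0.30 (adjusted p = 0.308), so its probes differed in sign. RPL9, RPL36A, RPL12, RPL8 and RPL13 had a lowest probe between -0.81 and -0.52, and none of their probes passed. RPL4 and RPL39, which line the peptide tunnel, had -0.32 ± 0.19 (adjusted p = 0.121) and 0.35 ± 0.30 (adjusted p = 0.187). RPL14 had 0.23 and 0.42 at its probes, and RPL10A, RPL23, RPL23A, RPL26, RPL27, RPL27A, RPL30, RPL32, RPL34, RPL35, RPL36, RPL37, RPL37A and RPL38 lay between -0.32 and 0.16.

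Set against each other, the small subunit had a median ratio of -0.18 over 39 probes and the large subunit -0.32 over 73. Of the small-subunit probes 2 passed as higher in blastocysts and 5 as higher in granulosa cells, and of the large-subunit probes 0 and 8. The shares were 5.13% and 12.8%, and 0% and 11%, against 4.95% and 5.19% of all tested probes. By the adjusted p alone the counts were 2 and 8 (5.13% and 20.5%), and 2 and 20 (2.74% and 27.4%). All tested probes had 8.92% and 8.35% by this measure. In limma, 21 of the 39 small-subunit probes (53.8%) and 41 of the 73 large-subunit probes (56.2%) had an unadjusted p under 0.05 in either direction, against 35.6% of all tested probes. The difference of the medians, small minus large, was 0.26, 0.19 and 0.020 in the 3 replicates (mean 0.15 ± 0.12), and on one array of replicate 3 it was -0.084. It was 0.080 without the RPLP0 probes, 0.050 with 1 value per gene, 0.023 without probes near the scanner limit and 0.28 without replicate 3. No test of it was made.

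Probes of a gene mostly shared their sign but often differed in size. Of 26 genes with several tested probes, 22 had the same sign at every probe, while 76.8% of all member ratios were negative. The median spread between the lowest and highest probe was 0.34, and the median size of a member ratio was 0.35. RPS14 probes lay 0.020 apart. RPL13A, RPL15, RPL36 and RPL7 had probes of both signs. The widest spreads were 1.30 for RPS2, 1.04 for RPL15, 1.02 for RPL7 and 0.90 for RPL21. In RPS2 and RPL7 the probe nearest to 0 was over 30000 units on all 6 arrays. In RPL15 the probe nearest to 0 was over it on no array, and the probe that passed was over it on all 6, in granulosa cells only.

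Many ribosomal protein probes gave a signal close to the upper limit of the scanner. Over 30000 raw units on at least one array were 45 of the 112 members (40.2%), against 482 of all 35034 tested probes (1.38%). The highest raw signal on any array was between 38593 and 42366 units, so a ratio at this brightness may be understated. On all 6 arrays 32 members were over 30000 units, and their ratios ran from -1.15 to 0.21 with a median size of 0.20. The 67 members that were never over it had a median ratio of -0.32 and a median size of 0.50, and they held both probes that passed as higher in blastocysts and 8 of the 13 that passed as higher in granulosa cells. The 13 members over 30000 units on 1 to 5 arrays had a median ratio of -0.69, and 3 of them passed. Among all tested probes, the 242 over 30000 units on all 6 arrays had a median size of 0.44. The 240 over it on 1 to 5 arrays had a median ratio of -0.75, and 124 of them passed. The 34552 never over it had a median ratio of -0.010 and a median size of 0.17. Of these, 1650 passed as higher in blastocysts and 1710 as higher in granulosa cells.

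**Figure D3:**
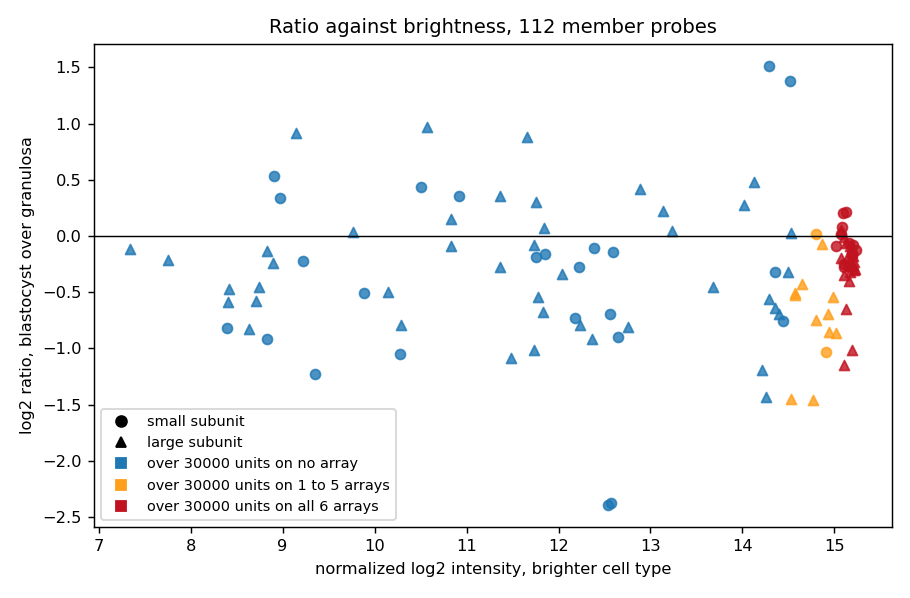
Each point is one of 112 member probes, with its normalized log2 intensity in the brighter cell type on the x axis and its mean log2 ratio (blastocyst over granulosa) on the y axis. The 32 probes over 30000 units on all 6 arrays (red) stand in a column at the right edge between -1.15 and 0.21, and the widest ratios belong to probes at lower brightness.

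The ratios of many members differed between the replicate pools. An F test over the 3 replicate numbers, on 6 arrays with a dye term, put 66 of the 112 members at an adjusted p under 0.05 (58.9%, against 37.6% of all tested probes). The share was 61.2% for mitochondrial ribosomal proteins, 58.2% and 52.5% for small-subunit and large-subunit assembly factors and 62.5% for ribosomal RNA modification. It was 48.1% for initiation and elongation factors. With median centring the member count was 17, and no share of all tested probes is given for that setting. Of the 66, 37 had their highest ratio in replicate 3 and 36 their lowest in replicate 1. The blastocyst signal was dimmest in replicate 1 for 35 of them and the granulosa signal brightest in replicate 1 for 35. The pools spread over a wider range in the blastocyst channel for 29 and in the granulosa channel for 37. RPL13 probe EMBV3_18400 had the smallest F-test adjusted p among them, at 1.58e-05, with ratios of -1.24, -0.63 and 0.30.

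Signal of markers of other cell types also differed between the granulosa pools. The summed normalized intensity of 19 leukocyte marker probes was 2702, 2314 and 2398 units in blastocyst replicates 1 to 3, against 48074, 6457 and 3362 units in granulosa replicates 1 to 3. Theca and stroma markers summed to 10227, 11742 and 10568 units in blastocysts, against 64476, 92868 and 10232 units in granulosa cells. Endothelial markers summed to 1368, 1361 and 1311 units in blastocysts, against 6562, 5869 and 1253 units in granulosa cells, and red cell markers to 873, 792 and 787 units, against 8690, 1058 and 1078 units. All these sums were highest in granulosa replicate 1 or 2, and in replicate 3 none but the leukocyte and red cell sums exceeded the blastocyst sum. The granulosa excess of each of these sums came largely from a few probes. In mean log2 intensity, HBB was 10.26 in granulosa cells against 7.42 in blastocysts, while HBA was 7.20 against 7.55. LYZ was 11.33 against 7.13 and LAPTM5 probe EMBV3_26964 was 10.34 against 6.78, while CD2 was 7.19 against 7.07 and CORO1A was 7.28 against 7.11. KDR was 10.28 against 7.04, and PECAM1 was 7.25 against 7.26. COL3A1 was 13.58 against 7.28, while CYP17A1 was 7.11 against 7.22 and INSL3 was 7.68 against 7.51. Of the leukocyte probes 13 were tested, 12 had a negative ratio and none passed at the size and adjusted p criteria in limma, though 3 had an unadjusted p under 0.05. Of the 19, 6 were above background on no blastocyst array and 4 on no granulosa array. PTPRC, the common leukocyte antigen, had one probe above background on all 6 arrays in both cell types and one on none. The part of these cells in the ribosomal protein ratios was not tested.

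**Figure D4:**
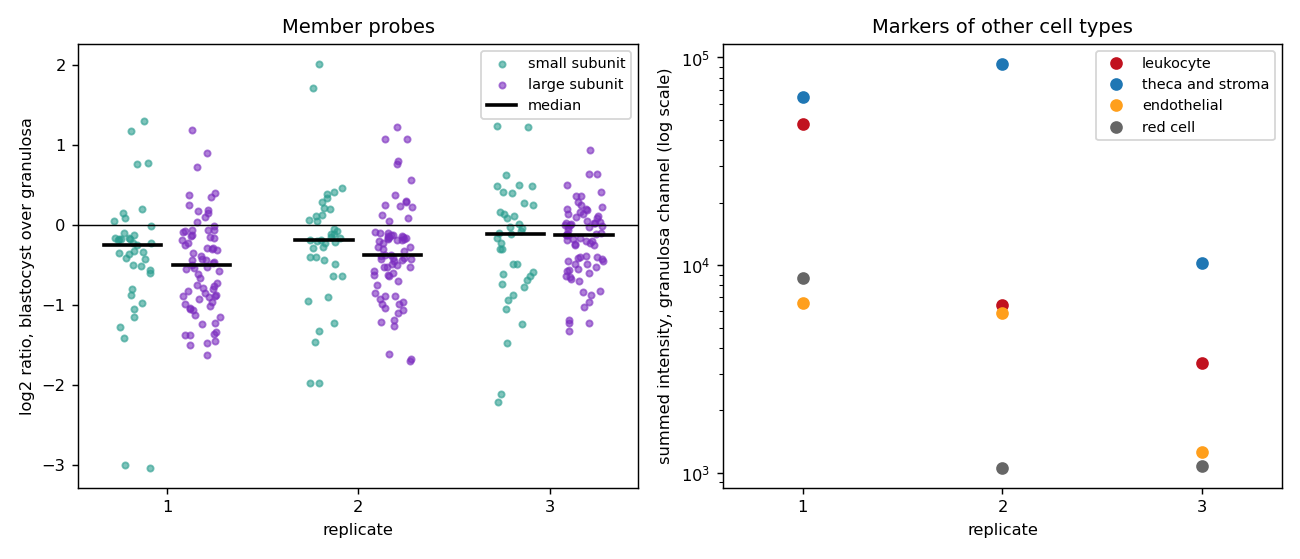
Left, the log2 ratio (blastocyst over granulosa) of each member probe in replicates 1 to 3 for the small and large subunit, with bars at the medians. Right, the summed intensity of marker probes of 4 other cell types in the granulosa channel on a log scale. Member medians run from -0.50 for the large subunit in replicate 1 to -0.10 for the small subunit in replicate 3, and the theca and stroma sum is 10232 units in replicate 3 against 92868 in replicate 2.

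Transcripts of ribosome assembly factors had mostly positive ratios. Of 55 tested probes of small-subunit assembly factors, 11 passed as higher in blastocysts and 0 as higher in granulosa cells, with a median of 0.18 and with 15 negative ratios. The shares were 20% and 0%, against 4.95% and 5.19% of all tested probes. In limma 30 of the 55 (54.5%) had an unadjusted p under 0.05 in either direction, against 35.6% of all tested probes. IMP3, a U3 small nucleolar ribonucleoprotein component, had 2.06 ± 0.63 (adjusted p = 0.0309) and WDR43, of the same early particle, had 2.06 ± 0.64 (adjusted p = 0.0318), with 0.61 and 0.57 at its other probes. RCL1, a nucleolar processing factor, had 1.97 ± 0.27 (adjusted p = 0.0100), and the helicase DDX52 had 1.84 ± 0.10 (adjusted p = 0.00516). Of 59 large-subunit assembly probes, 12 passed as higher in blastocysts and 2 as higher in granulosa cells, with a median of 0.47. The shares were 20.3% and 3.39%, against 4.95% and 5.19% of all tested probes. NMD3, the export adaptor of the large subunit, had 1.98 ± 0.45 (adjusted p = 0.0191) at one probe, but 0.47 and -0.24 at the others. EIF6, which keeps the unfinished subunit from joining, had 1.49 ± 0.05 (adjusted p = 0.00487) at one probe and -0.34 at the other. RSL1D1 had 1.70 ± 0.23 and GTPBP4 had 1.67 ± 0.24. SBDS, which takes part in the release of EIF6, was higher in granulosa cells at one probe, with -1.23 ± 0.23 (adjusted p = 0.0154), and had -0.53 and 0.57 at the others. NSA2 was higher in granulosa cells at -1.56 ± 0.55 (adjusted p = 0.0407).

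The 32 probes for ribosomal RNA modification had a median of 0.34 and 5 negative ratios, and in limma 19 (59.4%, against 35.6% of all tested probes) had an unadjusted p under 0.05. Of the 32, 5 passed as higher in blastocysts (15.6%, against 4.95% of all tested probes) and 0 as higher in granulosa cells. The 5 were 2 probes of NHP2, a protein of the pseudouridylating particles, at 1.89 ± 0.55 and 1.73 ± 0.40, 2 of 7 of the methyltransferase EMG1 at 1.14 ± 0.28 and 1.02 ± 0.30, and the methyltransferase fibrillarin (FBL) at 1.00 ± 0.05. RNA polymerase I probes passed in both directions, at shares near those of all tested probes. Of 31 probes 2 passed as higher in blastocysts (6.45%, against 4.95% of all tested probes). These were POLR1B at 1.21 ± 0.26 and ZNRD1 at 1.21 ± 0.34 (0.56 and -0.36 at its other probes). In granulosa cells 1 passed as higher (3.23%, against 5.19%), POLR1D at -1.23 ± 0.43, with -0.50 at its other probe. Mitochondrial ribosomal proteins are encoded in the nucleus and work in another ribosome. Of their 121 probes, 8 passed as higher in blastocysts (6.61%) and 4 as higher in granulosa cells (3.31%), with a median of 0.18. Initiation and elongation factors had 5 (6.49%) and 2 (2.6%) of 77, with a median of -0.045. All tested probes had 4.95% and 5.19%. By the adjusted p alone, 14 and 7 of the mitochondrial probes passed (11.6% and 5.79%). For the factors these were 13 and 5 probes (16.9% and 6.49%), against 8.92% and 8.35% of all tested probes. These lists were not tested against the cytoplasmic ribosomal proteins.

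**Figure D5:**
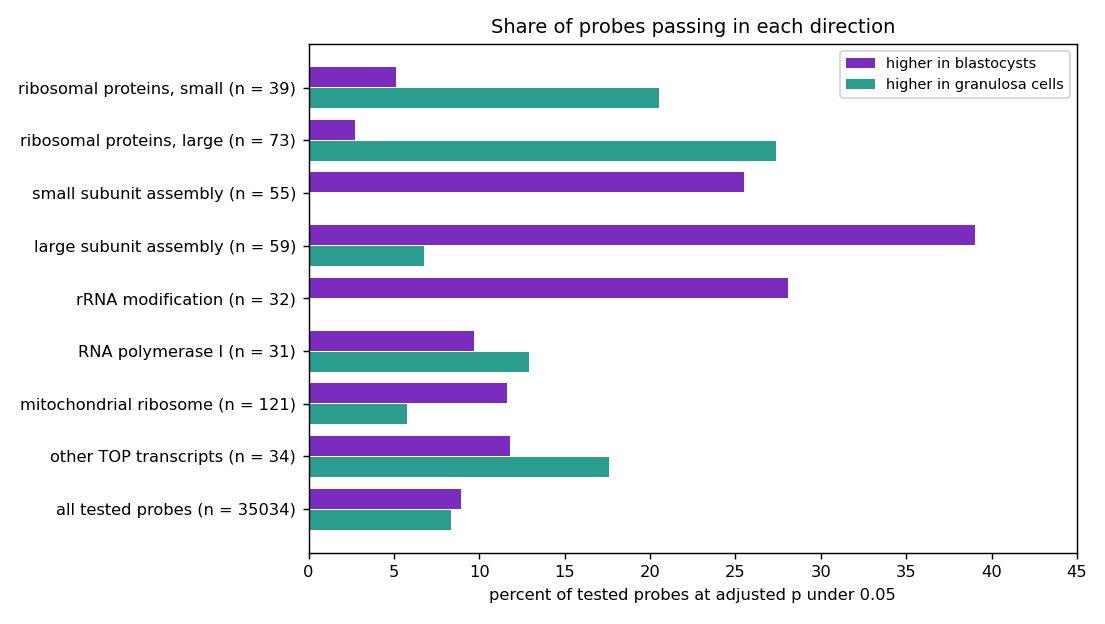
Percent of tested probes at an adjusted p under 0.05 as higher in blastocysts (upper bar) and as higher in granulosa cells (lower bar), for the 2 sets of ribosomal proteins, 6 related lists and all tested probes. Large-subunit ribosomal proteins show 2.74% and 27.4%, large-subunit assembly factors 39.0% and 6.78%, and all tested probes 8.92% and 8.35%.

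Other transcripts with a TOP motif did not follow one direction. Of 34 probes 4 passed as higher in blastocysts and 3 as higher in granulosa cells, with a median of -0.10. The shares were 11.8% and 8.82%, against 4.95% and 5.19% of all tested probes. SLC25A5, a mitochondrial adenine nucleotide carrier, had 2.36 ± 0.57 and 2.11 ± 0.59, NAP1L1 had 1.17 ± 0.39, and EIF4B had 1.08 ± 0.06. EIF2S3 had -1.36 ± 0.05, HSP90AB1 had -1.30 ± 0.43, and NACA, the nascent-chain binding protein, had -1.21 ± 0.23. Of 25 probes of factors that bind the ribosome, NAA15, ABCE1 and HABP4 passed as higher in blastocysts (1.25, 1.19 and 1.15) and NACA as higher in granulosa cells. They made up 12% and 4% of that list. NAA15 and HABP4 had further probes at 0.0073, and at -0.48 and -0.58. RACK1, a scaffold on the head of the small subunit, had 0.05 ± 0.17 (adjusted p = 0.688). Of 40 probes of TOR and MYC regulators, 1 passed as higher in blastocysts (2.5%) and 3 as higher in granulosa cells (7.5%). In limma 14 of the 40 (35%, against 35.6% of all tested probes) had an unadjusted p under 0.05. MYCN, a MYC family activator of growth genes, passed as higher in blastocysts at 2.30 ± 0.55 (adjusted p = 0.0210). RRAGD and RRAGB, GTPases that bring TOR to the lysosome, passed as higher in granulosa cells at -2.79 ± 0.60 and -1.57 ± 0.19. MXI1, an antagonist of MYC, did so at one of 3 probes, with -2.42 ± 0.68, and had -2.28 and -0.18 at the others. MYC had -2.46, -2.09 and -0.12, with a mean of -1.56 ± 1.25 (adjusted p = 0.160).

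Some members are often used as reference transcripts for quantitative PCR. The list held RPLP0, RPL13A, RPS18, RPL32, RPS9, RPL4 and RPS15, with 20 tested probes. By the adjusted p 7 of these were higher in granulosa cells (35%, against 8.35% of all tested probes) and 0 in blastocysts. These 7 were the 6 RPLP0 probes and RPS18. RPL32 had 0.04 ± 0.17 (adjusted p = 0.784), RPS15 had 0.02 ± 0.34 (adjusted p = 0.935), and 13 of the 20 (65%, against 35.6% of all tested probes) had an unadjusted p under 0.05. Of the 20 probes 12 belong to RPLP0. Of 18 Diamond-Blackfan anaemia genes with 28 tested probes, 8 probes passed as higher in granulosa cells (28.6%, against 5.19% of all tested probes) and 0 as higher in blastocysts. The median of the 28 was -0.30, and 18 (64.3%, against 35.6% of all tested probes) had an unadjusted p under 0.05 in limma. The 8 were the 4 RPL18 probes, RPS26, RPL35A, RPS19 and RPL15. Of 14 probes on the P stalk list, 6 were past the adjusted p as higher in granulosa cells (42.9%, against 8.35% of all tested probes). All 6 were RPLP0 probes, and none was higher in blastocysts by the adjusted p. RPL3, RPL10, RPS4X, RPL22, RPS27A, RPL39L and RPL36AL had no probe with these symbols in the table used and were not analysed here.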

How the data were processed

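The deposited files hold, per the file headers, the mean raw intensity and the median local background of each spot in Cy3 and Cy5, and a net intensity, with no scanner or software named. The authors' deposited value table, a score, equals one channel's log2 net intensity divided by the other's (100% of values within 1e-04), with the sign turned to minus on the arrays titled blastocyst and the other channel on top on granulosa array 2. Its column medians are -0.998, -0.998 and -1.00 on blastocyst arrays and 1.00, 0.999 and 1.00 on granulosa arrays. It restates those intensities and was not run separately.

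With limma 3.58.1 in R 4.3.3, raw intensities were corrected with normexp (offset 50), normalized by loess within each array (control spots at weight 0, span 0.3), and turned to blastocyst over granulosa. Tested probes had to exceed the 95th percentile of 153 negative controls in either cell type on 3 or more of the 6 arrays (35034 of 43794, 80.0%). Same-numbered arrays were averaged, and lmFit and eBayes tested the 3 replicates (3.35 degrees of freedom). Channel intensities are after loess and Aquantile. Whether replicates came from separate animals is not given, so p-values measure only the spread between these pools, and the number of arrays limits the precision. The numbers come from the titles and were taken as pairing, since arrays of one number deviated together (r of 0.84 to 0.93 across probes) and others did not (-0.59 to -0.20).

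Members and lists were chosen with earlier results of these data known. Named were members that passed, the 6 highest and 6 lowest, the 4 genes with the widest probe range, a fixed set, and up to 4 passing members of a list per direction. The remaining members and lists are summarised. The symbols of all 113 member probes are current in the RefSeq gene table. The fit was tested on simulated data. Alternatives changed the background correction, normalization, probe filter, pairing, probe choice and replicates. Figures used Python 3.11.15 and matplotlib 3.10.9.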

Additional observations from a re-analysis of the deposited data

How the results depend on the processing

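Of the counts of ribosomal protein probes, the 13 of 112 that passed as higher in granulosa cells became 6 with median centring in place of loess and 8 with the deposited net intensities. Without probes near the scanner limit 8 of 67 tested members passed, and the rest of the 13 were left out there. With only the brightest probe of each of the 65 tested genes 8 passed. Leaving out a replicate gave 0 to 9. The count of 2 higher in blastocysts became 0 with the brightest probe of each gene and 0 to 1 with a replicate left out. The single probes were RPL7 EMBV3_27085 without replicate 1 and RPL7A EMBV3_09892 without replicate 3, and neither RPS2 probe. By the adjusted p alone, the 4 higher in blastocysts became 8 with median centring, 12 with the replicate block or with the 6 arrays taken as independent, 10 with the block and a dye term, and 0 to 2 with a replicate left out. The 28 of 112 higher in granulosa cells became 18 of 67 without probes near the scanner limit. This count was 45 with the replicate block or independent arrays, 44 with the block and a dye term, and 0 to 14 with a replicate left out. The common correlation within the block was -0.0026 without and 0.66 with the dye term, and the block changed no other of these counts. With median centring the median ratio was -0.071 in place of -0.27 and 17 probes in place of 66 differed between pools. The small minus large difference ran from 0.097 to 0.28 with a replicate left out. Signs turned with median centring for RPSA EMBV3_06189 (0.16), RPLP1 (0.11), RPS6 EMBV3_22195 (0.10) and RPL7 EMBV3_35540 (0.15), and for RPLP1 without replicate 1 (0.13, against -0.30 without replicate 3). None of these 4 had passed. Over all named probes and settings, 393 values kept direction and call, 53 lost the call and 3 gained it. The causes were not tested. The deposited value table was not run. The alternatives without the RPLP0 probes and without RPS19BP1 were chosen after seeing the data.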

Other observations

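Paralogues of ribosomal proteins with symbols ending in L1 are not among the members. RPL7L1, an RPL7-like protein, had 6 tested probes, all with a positive mean ratio. The highest, EMBV3_07507, gave 1.65, 0.96 and 1.08, with a mean of 1.23 ± 0.37 (limma adjusted p = 0.0315), and the other 5 had means from 0.092 to 0.87. RPL22L1, a paralogue of RPL22, gave 0.58, 1.03 and 1.43, with a mean of 1.01 ± 0.42 (adjusted p = 0.0557). The 2 probes of RPL26L1, a near copy of RPL26, were both higher in granulosa cells by the adjusted p, at -0.79 ± 0.22 (adjusted p = 0.0310) and -0.81 ± 0.12 (adjusted p = 0.0142), while the RPL26 probe, over 30000 units on all 6 arrays, had -0.32 ± 0.11 (adjusted p = 0.0659). FAU, the fusion gene that encodes RPS30, had 0.52 ± 0.19 (adjusted p = 0.0516).

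Among the translation lists, EIF4A2, an RNA helicase of initiation, was higher in granulosa cells at -2.83 ± 0.49 (adjusted p = 0.0126), as were 2 probes of the mitochondrial ribosomal protein MRPS6 at -2.03 ± 0.77 (adjusted p = 0.0447) and -1.98 ± 0.39 (adjusted p = 0.0154). The 2 probes of elongation factor EEF1A1 had -0.81 ± 0.13 (adjusted p = 0.0155) and -0.09 ± 0.11 (adjusted p = 0.407).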
